A study of Mus musculus with 8 samples.

Results

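The genes described here encode the actin cytoskeleton machinery of the neutrophil: the actins themselves, the Arp2/3 complex that nucleates branched filaments, the WASP and WAVE proteins that switch it on, the proteins that recycle, elongate, sever, bundle and cap filaments, and the linkers that tie filaments to membrane and integrins. The 34 genes were listed by name, and every array probe whose accession is a RefSeq transcript of a listed gene was taken. All 34 had a probe and all 34 were tested, among 21251 genes in all. They had 52 probes, and each of the 52 passed the filter on dim probes.

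Messenger RNA was measured in bone marrow cells carrying Ly6G, a neutrophil surface protein, from wild-type (WT) mice and from mice lacking ATF3 (ATF3 KO), a stress-induced transcription factor that binds DNA through a basic leucine zipper. Both genotypes were on a C57BL/6 background, cells came from tibias and femurs and were taken with magnetic beads, and each of 4 WT and 4 ATF3 KO samples was hybridised to its own single-colour Agilent array. The work concerns neutrophil migration, by the title of the series. The kind of knockout allele and the age and number of animals are not given in the sources used here, so the p-values measure only the spread between these samples. The design text has RNA taken directly after sorting, while the description field of 7 samples speaks of a week in methylcellulose with 4-OHT, and the labels were not reconciled. The 4 WT arrays lay in 1 row of a single slide and the 4 ATF3 KO arrays in the other, and the effect of the row cannot be told apart from that of the genotype.

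A neutrophil crawls by pushing its front forward with a branched actin network. At the leading edge, Rac and Cdc42 activate WAVE and WASP, these activate Arp2/3, new filaments grow as branches from old ones, and profilin, cofilin, coronin and the thymosins keep a pool of actin monomers in circulation. At the rear, non-muscle myosin pulls on bundled filaments, while talin, vinculin and the ERM proteins couple the cortex to integrins and to the membrane.

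Of 16 neutrophil markers, 15 had a named probe and all 15 were above background on all 8 arrays; Ly6g itself is unnamed here. Other cells left RNA in the sorted fraction too. The 10 megakaryocyte and platelet markers were all above background on all 8 arrays, as were the 9 named markers of stroma and endothelium and the 10 named markers of monocytes and macrophages. The probe for Atf3 averaged 0.73 ± 0.07 over the 4 WT arrays and 1.24 ± 0.27 over the 4 knockout arrays (mean ± SD, limma adjusted p = 0.121) on the log2 scale explained below, with all 4 knockout arrays above all 4 WT arrays. Whether this probe lies in the deleted part of the gene is not given in the sources used here, so it does not check the labels. Tiam2, which encodes a Rac exchange factor, averaged 3.59 ± 0.07 in WT and was not well above background on any of the knockout arrays. In a bulk sample fewer cells of a type and less RNA per cell cannot be told apart.

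Values are given as scaled log2 signal, the log2 of the background-subtracted processed signal minus the 75th percentile of that array, so that 0 is the level of the array's 75th percentile. A difference is always ATF3 KO minus WT on this scale. Levels of different probes are not comparable as amounts of RNA, so each gene is compared with itself across arrays. A gene with several probes is represented by the probe with the highest mean, and the other probes are described further on.

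None of the 34 genes passed the threshold for a difference between genotypes, a limma adjusted p under 0.05 over all genes, against 0.447% of all genes tested. Their adjusted p-values ran from 0.147 to 0.943. At an unadjusted limma p under 0.05 there were 4, namely Actb and Actg1, which lay higher in ATF3 KO, and Abi1 and Gsn, which lay lower. That is 11.8% of the genes, where 23.9% of all genes reached the same level. Among the 5309 genes with the brightest probes, to which 32 of the 34 belong, 18.7% reached it and 1 gene passed the threshold. The values of the 2 genotypes did not overlap for 3 of the 34 genes, or 8.82%. That compares with 15.1% of all genes and 14.6% of the 5309. Actg1 was higher in all 4 ATF3 KO samples (4.13% of all genes were separated that way), and Gsn and Vcl were lower (10.9% of all genes).

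The differences were small. Their median was −0.13, beside −0.11 for all genes, and 23 of 34 were under 0.2 in size, beside 49.1% of all genes and 58.6% of the 5309 genes with the brightest probes, to which 32 of the 34 belong. On the main scaling, the 95% interval of the difference lay wholly within 1.5-fold in either direction for 30 of 34 genes. The 4 exceptions were Actb, Actg1, Abi1 and Cap1. This count was not made under other scalings, which move the differences. Median scaling, for example, put the median of the 34 genes at −0.20. Which side of 0 a small difference fell on depended on the scaling. With the main scaling 31 lay below 0 and 3 above. Below 0 there also lay 13924 of all 21251 genes, and 4419 of the 5309 with the brightest probes. Taking the percentile only from probes detected on every array adds the same amount to the difference of every gene, moving the median of all genes from −0.11 to 0.04, and 15 of the 34 then lay below 0 and 19 above. Relative to the median of all genes, which that shift leaves as it was, 21 lay below and 13 above. Of the 5309 genes with the brightest probes, 3402 lay below that median. The split of the 34 genes was 31 and 3 with normexp background correction, 25 and 9 without ATF3 KO replicate 3, and 13 and 21 without ATF3 KO replicate 4. With no filter on dim probes it was 30 and 4. There the median of the 34 genes stayed at −0.13 and that of all genes moved to −0.02.

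**Figure D1:**
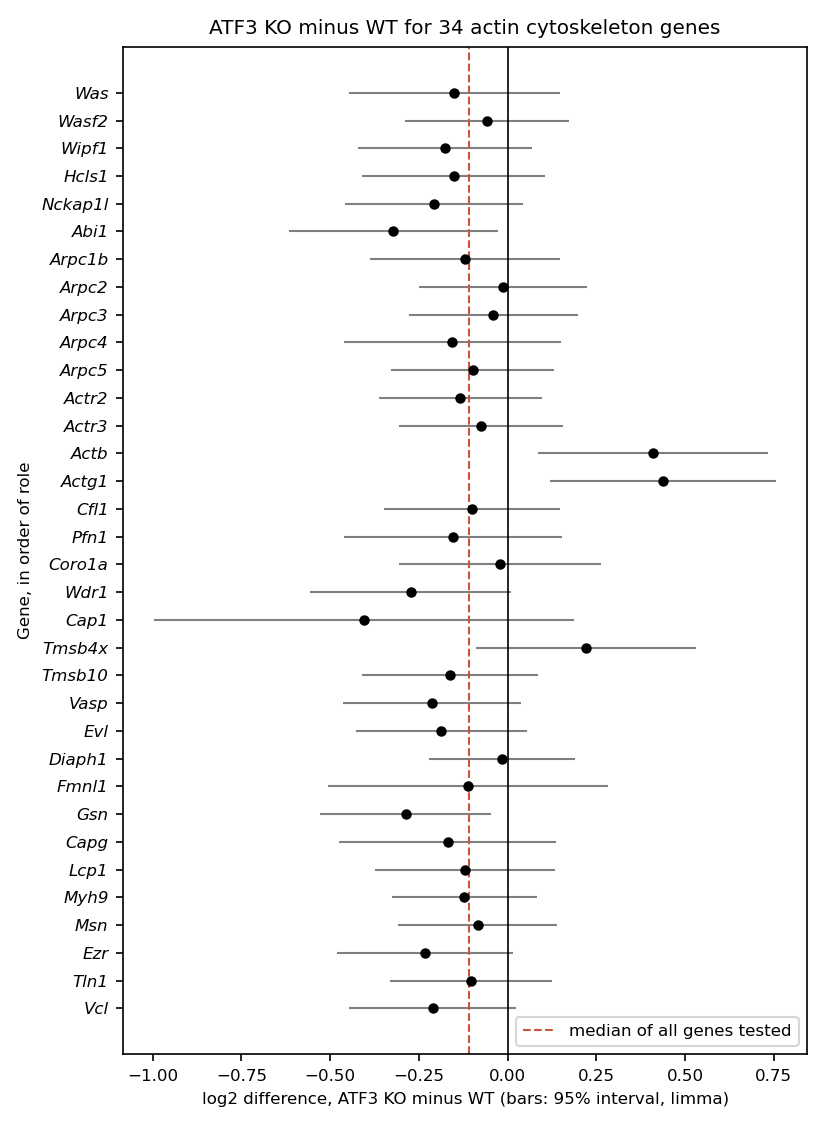
Log2 difference, ATF3 KO minus WT, of each of the 34 genes (points) with its 95% interval from limma (bars), in order of role from top to bottom. The dashed line is the median of all 21251 genes, −0.11; Actb and Actg1 lie to its right with intervals above 0, and most other intervals span both it and 0.

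The actins stood at one end of the range. Actb encodes β-actin and Actg1 γ-actin, the 2 non-muscle actins from which the filaments are built. The scaled log2 signal of Actb was 10.48, 10.56, 10.85 and 10.91 in WT replicates 1 to 4 and 10.89, 11.00, 11.18 and 11.37 in ATF3 KO replicates 1 to 4. The genotypes overlapped only in that WT replicate 4 exceeded ATF3 KO replicate 1. The difference was 0.41 (SE 0.14), or 1.33-fold with a 95% interval from 1.06 to 1.66 (limma adjusted p = 0.158).

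Actg1 read 9.79, 9.91, 10.16 and 10.18 in WT and 10.25, 10.30, 10.51 and 10.73 in ATF3 KO. All 4 ATF3 KO values lay above all 4 WT values, and within each genotype the arrays stood in the same order as for Actb. The difference was 0.44 (SE 0.14), or 1.35-fold with an interval from 1.09 to 1.69 (limma adjusted p = 0.147). Tmsb4x, which encodes thymosin β4, the main buffer of actin monomers in leukocytes, was the only other gene above 0. It read 10.03, 10.07, 10.32 and 10.46 in WT and 10.31, 10.25, 10.54 and 10.66 in ATF3 KO, overlapping groups with a difference of 0.22 (SE 0.14, limma adjusted p = 0.319).

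Before scaling, the signal of these 3 genes hardly followed the arrays. The 75th percentile of the processed signal ran from 113 to 216, a 1.92-fold span, lowest in ATF3 KO replicate 4 and highest in WT replicate 2. The unscaled signal of Actb ran from 291063 to 326106, a span of 1.12-fold, with 298888 in ATF3 KO replicate 4 and 308060 in WT replicate 1. Actg1 spanned 1.19-fold and Tmsb4x 1.28-fold. The mean unscaled signal of Actb was 307038 in WT and 310012 in ATF3 KO, that of Actg1 190356 and 195738, and that of Tmsb4x 219477 and 194806, so on the unscaled signal Tmsb4x lay lower in ATF3 KO. The other 31 genes spanned from 2.01-fold (Evl) to 3.44-fold. The higher scaled values of the actins in ATF3 KO therefore go with unscaled signals that were nearly level across the arrays, although no spot carried the scanner's saturation flag.

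**Figure D2:**
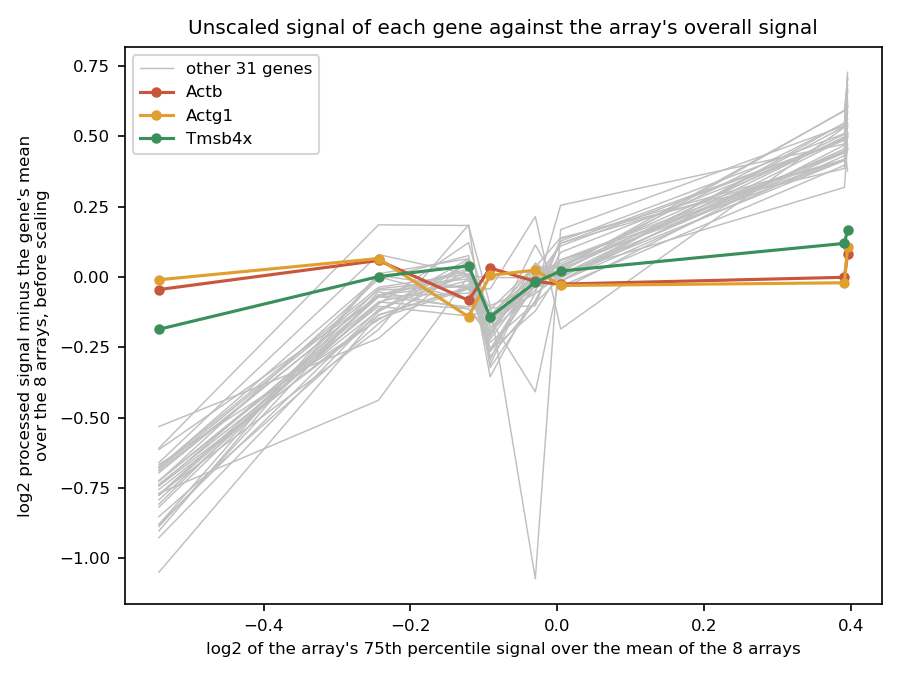
Unscaled log2 processed signal of each gene minus its mean over the 8 arrays (vertical) against the log2 of each array's 75th percentile relative to the mean of the arrays (horizontal). Grey lines are 31 genes that climb with the array's overall signal; Actb, Actg1 and Tmsb4x (coloured) stay nearly flat.

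The same direction was seen for other very bright probes. Ranked by mean signal over the 8 arrays, which reflects the probe as well as the RNA, Actb stood at 6, Tmsb4x at 23 and Actg1 at 29. All 20 of the 20 brightest genes had a positive difference (median 0.37), as had 28 of the next 30 (median 0.27). Of the genes ranked 101 to 500, 34.8% did (median −0.05), and of those ranked 501 to 2000, 14.7% (median −0.14). With quantile normalization the difference was 0.05 for Actb, 0.19 for Actg1 and −0.03 for Tmsb4x, and in the deposited log2 table it was 0.07, 0.06 and −0.07. Normexp background correction gave 0.25, 0.30 and 0.15, and median scaling 0.33, 0.36 and 0.15. The percentile over detected probes gave larger values, 0.56, 0.59 and 0.37, by the shift common to all genes described above. The part that signal strength plays in the actin values was not tested beyond these comparisons.

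**Figure D3:**
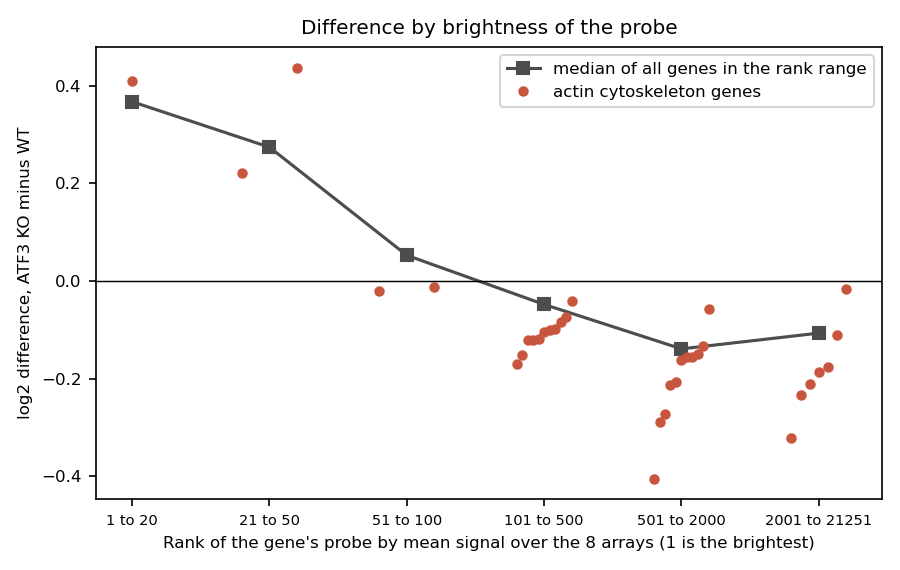
Log2 difference, ATF3 KO minus WT, of the actin cytoskeleton genes (red points) and median of all genes (grey squares) in ranges of rank by mean probe signal, where 1 is the brightest. The median of all genes is 0.37 for ranks 1 to 20 and −0.14 for ranks 501 to 2000, and the 3 genes above 0 all rank among the first 50.

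Actg1 had 5 probes, and they did not move alike. Besides the probe above (A_55_P1970597), A_55_P2114993 differed by 0.27 (SE 0.11) with separated genotypes, and A_55_P2008907 differed by 0.06 (SE 0.13). The other 2, A_52_P72237 at −0.16 (SE 0.16) and A_55_P1985984 at −0.23 (SE 0.14), lay on the opposite side of 0. Over the WT arrays the probes averaged 10.01 (A_55_P1970597), 9.93 (A_55_P2008907), 9.32 (A_55_P2114993), 7.87 (A_55_P1985984) and 7.86 (A_52_P72237). The differences did not follow that order, as A_55_P2008907 was brighter than A_55_P2114993 and had the smaller difference. None of the 5 passed the threshold when all kept probes were tested (adjusted p from 0.158 to 0.787). The coding sequences of the actins are close to each other and have many processed copies, so signal at these probes may be shared between genes, and the values of Actb and Actg1 are uncertain in that respect.

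**Figure D4:**
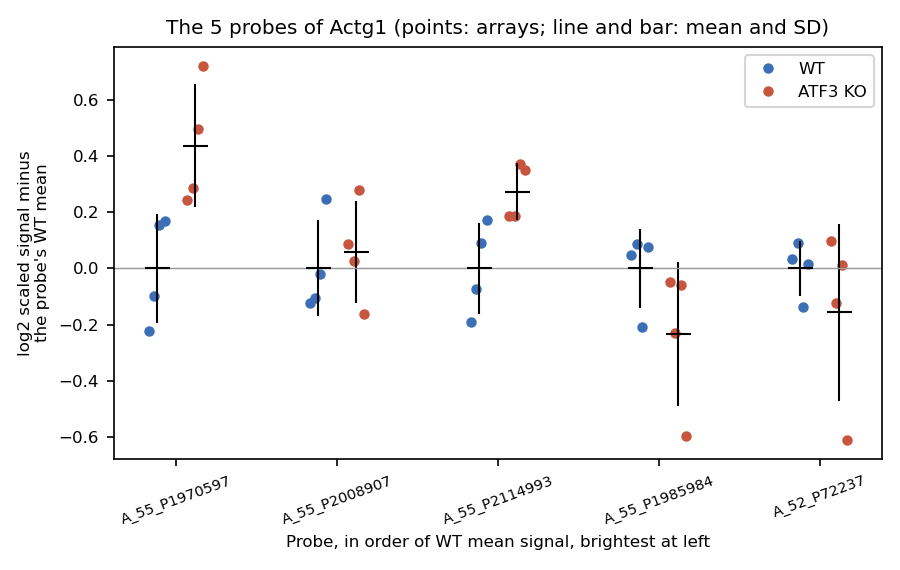
Scaled log2 signal of the 5 probes of Actg1, each set to its WT mean, for the 4 WT (blue) and 4 ATF3 KO (red) arrays; lines and bars are the mean and SD. ATF3 KO lies above WT for A_55_P1970597 and A_55_P2114993, near it for A_55_P2008907 and below it on average for the other 2.

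Transcription of actin and of several actin-binding proteins is known to be driven by serum response factor, which binds the CArG box, CC and GG around 6 bases of A or T. Because the actins and vinculin are known targets, the promoter windows of RefSeq (GRCm38.p6, 250 bases before to 50 after each gene's start) were searched on both strands. A window was found for 31 of the 34 genes, 41 windows in all, and none was listed for Actb, Diaph1 and Nckap1l. The CArG box occurred in 3 of these windows (7.32%), those of Actg1, Vcl and Arpc4, and in 1.63% of all 32851 windows. The matches in Actg1, at chr11:120348556-120348605 on the minus strand, and Vcl, at chr14:20929151-20929200 on the plus strand, are shown with the box in capitals; it starts at position −90 relative to the start of Actg1 and −227 relative to that of Vcl.
Actg1: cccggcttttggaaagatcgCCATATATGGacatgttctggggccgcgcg
Vcl: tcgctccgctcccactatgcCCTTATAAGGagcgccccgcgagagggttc
Of the 3 genes with a match, Actg1 lay at 0.44, Vcl at −0.21 and Arpc4 at −0.16, and none passed the threshold. The part of the box in these differences was not tested.

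ATF3 binds the CRE (TGACGTCA) and, with Jun partners, the AP-1 site (TGANTCA). The CRE occurred in 0 of the 41 windows, against 1.79% of all windows. The AP-1 site occurred in 2 windows (4.88%, against 7.81% of all), those of Hcls1 and Ezr. Hcls1 is shown from chr16:36934891-36934937 on the plus strand and Ezr from chr17:6782786-6782832 on the minus strand, with the AP-1 letters in capitals; they start at positions −72 and −32 relative to the gene starts.
Hcls1: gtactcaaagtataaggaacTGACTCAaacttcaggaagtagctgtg
Ezr: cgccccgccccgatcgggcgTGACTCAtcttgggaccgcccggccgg
Ezr differed by −0.23 and Hcls1 by −0.15, and neither passed the threshold. The core of the PU.1 motif (GAGGAAGT), named for a factor of myeloid genes, occurred in the windows of Arpc1b and Fmnl1 (4.88%, against 3.20% of all). A match is a string of letters in this window and does not show binding.

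**Figure D5:**
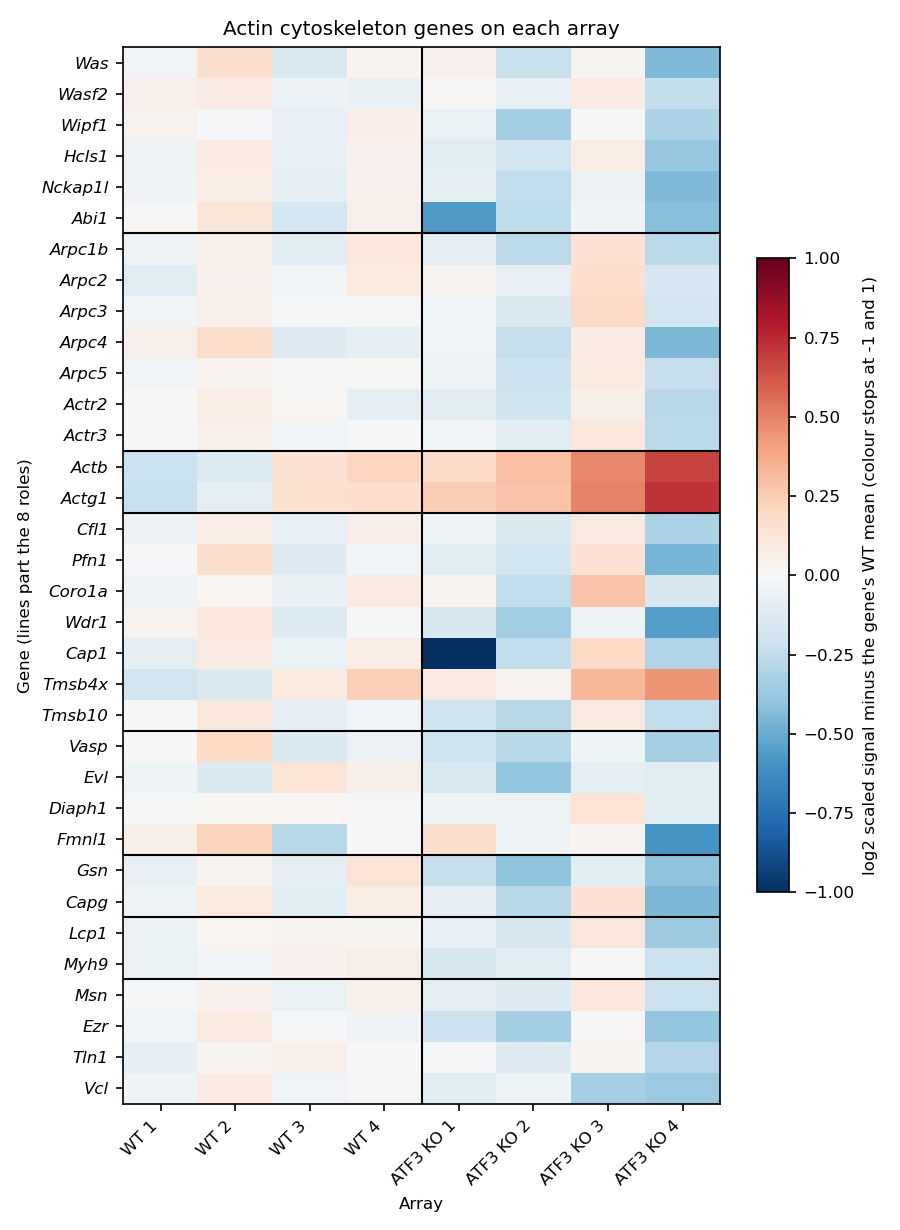
Scaled log2 signal of each gene on each of the 8 arrays minus the gene's WT mean (red higher, blue lower, colour stops at −1 and 1), with genes in order of role and lines between the 8 roles. Actb, Actg1 and Tmsb4x darken to red in ATF3 KO, most other genes are bluest in ATF3 KO replicate 4, and Cap1 is low in ATF3 KO replicate 1.

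Single arrays shaped the picture for the remaining genes. ATF3 KO replicate 4 held the lowest value of 24 of the 34 genes, while ATF3 KO replicate 3 held the highest of 12 and WT replicate 2 that of 14. Such counts were not made over all genes. The median deviation of all genes from their own means was −0.08 in ATF3 KO replicate 4 and −0.10 in ATF3 KO replicate 2. It was 0.02 in ATF3 KO replicate 3 and 0.08 in WT replicate 2. Relative to all genes on the same array, the median deviation of the 34 genes was −0.15 in ATF3 KO replicate 4 and 0.13 in ATF3 KO replicate 3. It lay between −0.03 and 0.04 on the 4 WT arrays and on the other 2 ATF3 KO arrays. The SD was larger in ATF3 KO than in WT for 32 of the 34 genes. A wider spread in ATF3 KO was also seen over all genes. There the root mean square difference was 0.40 to 0.52 between ATF3 KO arrays and 0.28 to 0.41 between WT arrays. Without ATF3 KO replicate 4 the median difference of the 34 genes was −0.06, and without ATF3 KO replicate 3 it was −0.20. The latter left 10 of the 34 genes at an unadjusted p under 0.05 in place of 4. Over all genes the same omission took that count from 5080 to 6976 of 21251.

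With the main scaling, the 7 genes of the Arp2/3 complex each differed by less than 0.2 between genotypes. Actr2 and Actr3 encode the actin-related proteins that form the seed of a branch, and Arpc1b, Arpc2, Arpc3, Arpc4 and Arpc5 encode 5 subunits that hold them and bind the mother filament. Their differences ran from −0.16 for Arpc4 to −0.01 for Arpc2, with a median of −0.10, and 0 of 7 reached an unadjusted p under 0.05. Other settings changed this. Arpc5 differed by −0.26 with normexp and −0.215 in the deposited log2 table, both at an unadjusted limma p under 0.05. With the percentile over detected probes it differed by 0.05. Arpc1b differed by −0.24, −0.165 and 0.03 in these settings, and reached that level only in the deposited log2 table. Actr2 had the smallest p with the main scaling. It read 5.51, 5.58, 5.53 and 5.43 in WT and 5.40, 5.31, 5.57 and 5.24 in ATF3 KO, a difference of −0.13 (SE 0.10, limma adjusted p = 0.405) with overlapping groups.

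Arpc2 had the difference closest to 0 of the 34 genes. It read 9.40, 9.54, 9.48 and 9.60 in WT and 9.53, 9.42, 9.68 and 9.34 in ATF3 KO, and the 95% interval of its difference ran from −0.25 to 0.22. Actr3 was at 8.58 ± 0.03 over the 4 WT and 8.51 ± 0.16 over the 4 ATF3 KO samples (mean ± SD, as in the values that follow). Arpc1b, the haematopoietic isoform of its subunit, was at 8.30 ± 0.10 and 8.19 ± 0.20, Arpc3 at 7.92 ± 0.04 and 7.88 ± 0.17, Arpc4 at 5.81 ± 0.14 and 5.65 ± 0.24, and Arpc5 at 9.06 ± 0.03 and 8.96 ± 0.15. The further probes of Arpc3, Arpc4 and Arpc5 all had negative differences, from −0.24 to −0.13.

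The 6 genes that switch Arp2/3 on all lay below 0, as did 13924 of all 21251 genes. The median of the 6 was −0.16, and 5 of 6 lay below the median of all genes. Abi1, an adaptor subunit of the WAVE complex, differed most. It read 1.34, 1.45, 1.15 and 1.38 in WT and 0.76, 1.08, 1.29 and 0.91 in ATF3 KO. ATF3 KO replicate 3 lay within the WT range and the other 3 below it. The difference was −0.32 (SE 0.13, limma adjusted p = 0.187), and it was −0.24 without ATF3 KO replicate 1 and −0.17 with the percentile over detected probes. Its processed signal, 211 to 589, was the lowest of the 34 genes and the closest to background.

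Nckap1l encodes HEM1, the WAVE complex subunit of blood cells. It read 5.80, 5.91, 5.74 and 5.87 in WT and 5.74, 5.58, 5.77 and 5.39 in ATF3 KO, a difference of −0.21 (SE 0.11, limma adjusted p = 0.265). Its probe was spotted 10 times on each array, and the SD between the 10 spots on an array was 0.03 to 0.06 on the log2 scale. The SD between samples was 0.08 in WT and 0.18 in ATF3 KO. Wasf2, which encodes WAVE2, was at 6.19 ± 0.08 in WT and 6.13 ± 0.14 in ATF3 KO (difference −0.06), and its other 2 probes gave −0.04 and −0.20. Was, the gene of the Wiskott-Aldrich syndrome protein, differed by −0.15 (SE 0.13) and Wipf1, whose product binds and stabilises WASP, by −0.18 (SE 0.11). Hcls1, a leukocyte relative of cortactin that holds branches in place, differed by −0.15 (SE 0.11).

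Genes for monomer binding and filament turnover spread further. Wdr1, whose product helps cofilin to take filaments apart, read 6.69, 6.77, 6.52 and 6.66 in WT and 6.50, 6.32, 6.61 and 6.11 in ATF3 KO. Its difference was −0.27 (SE 0.13, limma adjusted p = 0.218), all 4 ATF3 KO values lay below the WT mean, and the groups overlapped through ATF3 KO replicate 3. Cfl1, cofilin itself, differed by −0.10 (SE 0.11), and its other 2 probes by −0.20 and −0.26. Pfn1, the profilin that loads monomers with ATP and feeds them to growing ends, differed by −0.15 (SE 0.14), and Coro1a, the coronin of leukocytes, by −0.02 (SE 0.13).

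Cap1, whose product recycles actin monomers from cofilin, had the largest difference in size after the actins, −0.40, and the least certain. It read 7.31, 7.48, 7.33 and 7.47 in WT and 6.12, 7.15, 7.59 and 7.10 in ATF3 KO, so that a single array, ATF3 KO replicate 1, was more than 1 log2 unit below every WT array. The SE was 0.26, the 95% interval ran from −0.995 to 0.19, and without that array the difference was −0.11. Tmsb10, thymosin β10, was at 6.67 ± 0.09 in WT and 6.51 ± 0.17 in ATF3 KO. Its difference of −0.16 (SE 0.11) lay on the other side of 0 from that of Tmsb4x; the difference between the 2 thymosins was not tested.

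Among the proteins that elongate filaments, Vasp had the smallest p. It read 5.89, 6.08, 5.74 and 5.83 in WT and 5.69, 5.61, 5.84 and 5.55 in ATF3 KO, a difference of −0.21 (SE 0.11, limma adjusted p = 0.258) that was close to 0 in the deposited log2 table. Evl, its relative in the Ena/VASP family, differed by −0.19 (SE 0.11). The formins ride on the growing end of unbranched filaments. Diaph1 was at 2.73 ± 0.02 in WT and 2.72 ± 0.11 in ATF3 KO, and its other probe differed by 0.20 (SE 0.11). Fmnl1, the formin of leukocytes, differed by −0.11 with an SE of 0.18 and a 95% interval from 0.705-fold to 1.22-fold.

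Gsn encodes gelsolin, which cuts filaments and caps the new ends when calcium rises. It read 7.76, 7.88, 7.75 and 7.97 in WT and 7.62, 7.44, 7.73 and 7.44 in ATF3 KO, so that every ATF3 KO sample lay below every WT sample. The difference was −0.29 (SE 0.11), or 1.22-fold higher in WT (limma adjusted p = 0.167). It kept its sign under all 19 alternatives run for it, from −0.43 with normexp to −0.14 with the percentile over detected probes, with adjusted p from 0.0695 to 0.386. Its second probe differed by −0.19 (SE 0.11) with overlapping groups. Capg, which caps filament ends without cutting them, differed by −0.17 (SE 0.14) with overlapping groups.

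The linkers showed the other separated gene. Vcl encodes vinculin, which reinforces the bond between talin and actin at adhesions. It read 4.20, 4.32, 4.21 and 4.23 in WT and 4.13, 4.19, 3.91 and 3.88 in ATF3 KO, and the highest ATF3 KO value lay just under the lowest WT value. The difference was −0.21 (SE 0.10, limma adjusted p = 0.237). It was 0.00 in the deposited log2 table, and the gene's second probe differed by −0.06 (SE 0.12). Tln1, talin, which links integrin tails to actin and activates integrins, differed by −0.10 (SE 0.10), and its second probe by −0.12.

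Other marrow cells, stroma and endothelium among them, are also known to express Gsn and Vcl. The summed signal of the 9 named stromal and endothelial markers, relative to the array's 75th percentile, ran from 123 to 164 in WT and from 67.3 to 115 in ATF3 KO, lower in every ATF3 KO sample, and all 9 had a negative difference though 0 passed the threshold. For the 10 megakaryocyte and platelet markers the sum ran from 68.7 to 87.0 in WT and from 59.1 to 112 in ATF3 KO, and 9 of 10 had a positive difference. For monocytes and macrophages it ran from 1198 to 1525 in WT and from 1140 to 1361 in ATF3 KO, and 8 of 10 had a negative difference. The sum of the 10 B-lineage markers ran from 54.4 to 63.5 in WT and from 67.0 to 82.4 in ATF3 KO, higher in every ATF3 KO sample, and 9 of 10 had a positive difference. No marker of these lists passed the threshold. Of the 15 named neutrophil markers 10 had a positive difference, of the 8 erythroid markers 5, and of the 5 tested T and NK cell markers 1, with 0 past the threshold. Among 8 markers of eosinophils, basophils and mast cells, 4 had a positive difference. Of those 8, 1 passed, Gata2 (difference 0.75, limma adjusted p = 0.0494). Of 5 smooth muscle markers Acta2 and Tagln were above background on all 8 arrays, Myh11 on 3, and Cnn1 and Des on none. Their summed signal ran from 22.9 to 25.6 in WT and from 21.6 to 28.3 in ATF3 KO. The part of these cells in the values of Gsn, Vcl, Actb or Tmsb4x was not tested.

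Ezr and Msn encode ezrin and moesin, ERM proteins that pin cortical actin to the membrane. Ezr read 4.78, 4.90, 4.79 and 4.77 in WT and 4.60, 4.47, 4.82 and 4.42 in ATF3 KO. ATF3 KO replicate 3 stood within the WT range and the other 3 below it, and the difference was −0.23 (SE 0.11, limma adjusted p = 0.224). Msn differed by −0.08 (SE 0.10). For contraction and bundling, Myh9, the heavy chain of non-muscle myosin IIA, read 8.82, 8.85, 8.92 and 8.94 in WT and 8.72, 8.77, 8.88 and 8.67 in ATF3 KO. Its difference of −0.12 (SE 0.09, limma adjusted p = 0.396) had the same size as that of Lcp1, the leukocyte plastin that bundles filaments (−0.12, SE 0.11).

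In all, 22 genes had 1 probe and 12 had several, and for 10 of those 12 all probes had differences of the same sign. The 2 exceptions were Actg1 and Diaph1.

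A wider list of 102 other actin genes, among them further WAVE and Arp2/3 components, cofilin kinases and phosphatases, other formins, capping proteins, tropomyosins, myosins and adhesion proteins, was read the same way. All 102 had a probe and 94 were tested. The 8 not tested did not pass the filter on dim probes, namely Wasf3, Wipf3, Daam2, Scin, Avil, Pls1, Fscn1 and the cardiac actin Actc1. No gene of the 94 passed the threshold (limma, lowest adjusted p = 0.124), 13 had an unadjusted p under 0.05 (13.8%, beside 23.9% of all genes), and 12 of those 13 lay lower in ATF3 KO. Over all genes, 3086 of the 5080 at that level lay lower. That direction depended on the scaling. With the percentile over detected probes 3948 of all genes reached the level, of which 908 lay lower and 3040 higher. The directions in the wider list are given for the main scaling only. Among the 94, the genotypes were separated for 11, all lower in ATF3 KO, or 11.7% beside 10.9% of all genes.

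The 4 genes of this wider list with the smallest p were Ssh1, Abi3, Cyfip1 and Washc1. Ssh1, a phosphatase that activates cofilin, read −1.52, −1.87, −1.78 and −2.11 in WT and −2.32, −2.60, −2.08 and −2.56 in ATF3 KO, low signals with overlapping groups and a difference of −0.57 (SE 0.16). Abi3, another adaptor of WAVE, read 2.28, 2.34, 2.58 and 2.57 in WT and 2.18, 1.60, 2.14 and 1.72 in ATF3 KO, separated genotypes with a difference of −0.53 (SE 0.15). Cyfip1, the WAVE subunit that binds Rac, read 3.17, 3.21, 3.16 and 3.19 in WT and 3.01, 2.77, 2.92 and 2.59 in ATF3 KO (difference −0.36, SE 0.11), also separated. Washc1, which activates Arp2/3 on endosomes, read 4.87, 4.95, 4.69 and 4.93 in WT and 4.57, 4.35, 4.75 and 4.38 in ATF3 KO. Its groups overlapped through ATF3 KO replicate 3, and the difference was −0.35 (SE 0.12). The limma adjusted p of the 4 lay between 0.124 and 0.155.

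By role, an unadjusted p under 0.05 was reached by 7 of the 17 tested genes of filament turnover and cofilin control (41.2%) and 4 of the 16 other Arp2/3 and WAVE genes (25.0%), beside 23.9% of all genes. None of the 17 genes of capping, severing and bundling, the 12 of adhesion and the 9 other formins and Ena/VASP genes reached it. The difference between roles was not tested. The only one of the 13 that lay higher in ATF3 KO was Limk2, a kinase that inactivates cofilin (0.31, SE 0.13, limma adjusted p = 0.191).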

How the data were processed

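RNA from 8 samples was hybridised to 8 arrays. The authors deposited scanner files of spot intensity from Agilent Feature Extraction (10.9.1.1 per the file headers, 10.10 per the submitters' processing notes), background-subtracted and detrended within the array per the file headers. The deposited table of the series holds log2 values; each column correlated best with the log2 median signal of its own array, its scale looks like log2 signal, its centring is not given in the sources used here (column medians 6.13 to 6.15), and it served as an alternative. Flagged spots (98 to 159 per array) and control spots were left out, and spots of a probe averaged. Of 55681 probes, 27235 were matched to a symbol by RefSeq accession (GRCm38.p6 table). Probes above background on at least 4 arrays were kept (27948). Groups came from the sample titles and were compared over all genes with limma 3.58.1 (R 4.3.3), Benjamini-Hochberg adjusted p under 0.05, without covariates. Alternatives changed the scaling, background correction, filter, probe choice, variance model and threshold, added a replicate block, and left out each sample in turn. The limma step was tested on simulated data. The members and lists were chosen with earlier results of these data known. Values on every array were given for genes past the threshold, genes with separated genotypes (up to 10) and the gene with the smallest p in each role, and for the wider list for the 4 smallest p-values; those of Actb, Tmsb4x, Cap1, Arpc2 and Nckap1l were added after their values were seen. The files' coordinates are on another build (mm9) and are not given. Precision is limited by the number of arrays. The result of 1 group of the wider list is not reported here.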

Additional observations from a re-analysis of the deposited data

Results flagged for a closer look

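Among the 68 groups of 4 values (34 genes in 2 genotypes), 2 held a sample far from the other 3, where chance flags about 1 in 20 groups. Lcp1 in WT replicate 1 read 8.68, below the 8.77 to 8.78 of the other 3 WT samples. Ezr in WT replicate 2 read 4.9, above the 4.77 to 4.79 of the others. Both gaps are small on the log2 scale and stand out only because the other 3 values lie so close together.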

How the results depend on the processing

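No actin cytoskeleton gene, and none of the 94 wider genes, passed the threshold under any of the 20 alternatives, in 646 single values for the 34 genes. The number of genes at an unadjusted p under 0.05 was 4, and 9 with normexp, 7 with trend and robust variances and 2 under a replicate block; over all genes these counts were 5080, 6494, 5595 and 4090. It ran from 1 to 10 when single replicates were left out: leaving out WT replicate 1, 2 or 4 gave 2, 1 and 2, and leaving out ATF3 KO replicate 3 or 4 gave 10 and 2, while all genes ran from 2879 to 6976. The genes at that level changed too. In the deposited log2 table they were Arpc1b, Arpc5, Wdr1, Gsn and Myh9. With the percentile over detected probes they were Actb, Actg1 and Tmsb4x, and with quantile normalization Actg1, Gsn and Myh9. Of the 34 genes, 14 kept their sign under all 19 alternatives that tested single genes. Over all genes, 95 passed in the main analysis, 31 with quantile normalization, 217 with median scaling, 44 with the percentile over detected probes, 251 with normexp, 10 with no filter, 58 with every kept probe tested, 192 with trend and robust variances, 149 with the log2 values that were deposited, 148 with array weights and 403 when the adjusted p had to be under 0.1. The count ran from 9 to 234 when single replicates were left out. The share of these calls that lay higher in ATF3 KO was 82.1%, and 71.0% with quantile normalization, 62.2% with normexp and 40.0% with no filter. Leaving out WT replicate 1 gave 33.3%, or 3 of only 9 calls, and leaving out WT replicate 3 gave 53.8%, or 7 of 13. With the replicate block 72 genes passed; same-numbered samples did not deviate together (correlations of 0.19, −0.13, −0.27 and 0.18 for numbers 1 to 4), so the numbers are not taken as pairs. The cause of these shifts was not tested. The normexp alternative used the median signal, as the files used here have no mean signal.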
